A study of Mus musculus with 37 samples.

Results

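The 10 genes described here encode receptors and a secreted protein by which macrophages of lymphoid sinuses and of resident tissue populations are recognised. They were taken by gene symbol from the 56351 genes of the deposited table: the sialic acid receptor Siglec1, the scavenger receptors Marco, Msr1 and Cd163, the secreted protein Cd5l, the phosphatidylserine receptor Timd4, the lectins Mrc1 and Cd209b, and the macrophage antigens Adgre1 and Cd68. Each symbol matched a single row. The libraries hold RNA that was pulled down with tagged ribosomes (RiboTag): a Cre recombinase switches on a haemagglutinin-tagged copy of the ribosomal protein Rpl22, and an antibody against the tag recovers ribosomes and their mRNA. Every library carries the genotype label CD169 Cre KI/KI, Rpl22HA homozygous, so the Cre stands at the CD169 (Siglec1) locus in all of them, and no group lacks the Cre or the tag. The sites, with 3 libraries each, were the ileal, jejunal, duodenal and ceco-colonic lymph nodes, the celiac and liver nodes, the iliac and inguinal nodes, the deep and super cervical nodes, the mediastinal node and the spleen, and 1 further library from jejunal node was made with an isotype control antibody. The cell type label is cd169 macrophages throughout, the tissue label reads lymph node for the spleen libraries as well, and neither age nor pooling of animals is given.

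Macrophages that line the subcapsular and medullary sinuses of lymph nodes, and the marginal zone of the spleen, meet particles carried by lymph or blood before other cells do. They bind sialylated surfaces through sialoadhesin (CD169), polyanionic ligands and bacteria through class A scavenger receptors, dying cells through phosphatidylserine receptors and microbial sugars through C-type lectins. Several of these receptors are not limited to macrophages: MARCO and the mannose receptor are also known from lymphatic endothelium of the node.

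Library totals spanned 221911 to 69139450 counts. The 22 libraries with 1000000 counts or more (deep libraries) were all 3 from each of 7 sites (ileal, ceco-colonic, inguinal, both cervical and mediastinal node and spleen) and jejunal replicate 2, and between 1.97% and 42.7% of their counts lay in features of ribosomal sequence, against 39.0% to 85.6% in the 14 shallow ones. Unless stated otherwise, levels are counts per 1000000 counts (CPM) scaled by TMM in the deep libraries, fold changes are log2 values ± SE from edgeR, and a gene is called where its adjusted p lies under 0.05. All 10 genes passed the filter on low counts in the deep libraries, where 19702 genes were tested, and Marco alone passed it in the shallow ones. Nothing in the labels says that libraries of a site came from separate animals, so the p-values measure the spread between these libraries. Spleen replicate 3 stood apart from the other spleen libraries for several of the genes, with 151 CPM of Marco against 3340.1 and 935, and the results of the 10 genes and the list counts against spleen are therefore also given without it. In RNA pulled from whole tissue, fewer cells of a type and less RNA per cell cannot be told apart.

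The cell type label was checked with 16 macrophage genes outside the 10. Their summed level lay between 7079.9 and 7855 CPM in the ileal libraries and between 5846 and 9637 CPM in the mediastinal ones. It lay between 2362 and 4916 CPM in the ceco-colonic, inguinal and cervical ones and between 445 and 2493 CPM in spleen. Each of the 16 was above 0 at every deep site. All 16 were also above 0 in the isotype control, so presence alone cannot separate pull-down from background. By plain totals the sum was 395 CPM in the control, 345 to 1423 CPM in spleen and 318 to 3954 CPM in jejunal node. For the lowest spleen and jejunal libraries the sum therefore does not bear on the label. The nodes with 3 deep libraries all lay above the control, from 2611 CPM in the lowest inguinal library. Genes of other cells were present too. The summed level of 11 lymphatic endothelial genes was 391 to 475 CPM in ileal, 987 to 1174 CPM in mediastinal and 77.9 to 262 CPM in the other 4 nodes, against 13.2 to 53.8 CPM in spleen. The 7 B cell genes summed to 298 to 403 CPM in deep cervical node and to 1345 to 2397 CPM in the other nodes, against 1249 to 3141 CPM in spleen. By plain totals the B cell sum was 2557 CPM in the isotype control and 259 to 844 CPM in the jejunal pull-downs. The highest pull-down library, a mediastinal one, held 2946 CPM, so this sum does not separate pull-down from background. The 4 Kupffer cell genes summed to 41.5 to 90.1 CPM in mediastinal node, 2.38 to 18.1 CPM in the other 5 nodes and 0 to 30.2 CPM in spleen. The lectin gene Clec4f was at 0 at all deep sites except the ileal, where it averaged 0.00773 CPM, Vsig4 averaged at most 0.336 CPM, and most of the sum came from the iron exporter gene Slc40a1 (52.1 ± 23.6 CPM in mediastinal node and 15.5 ± 15.1 CPM in spleen).

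**Figure D1:**
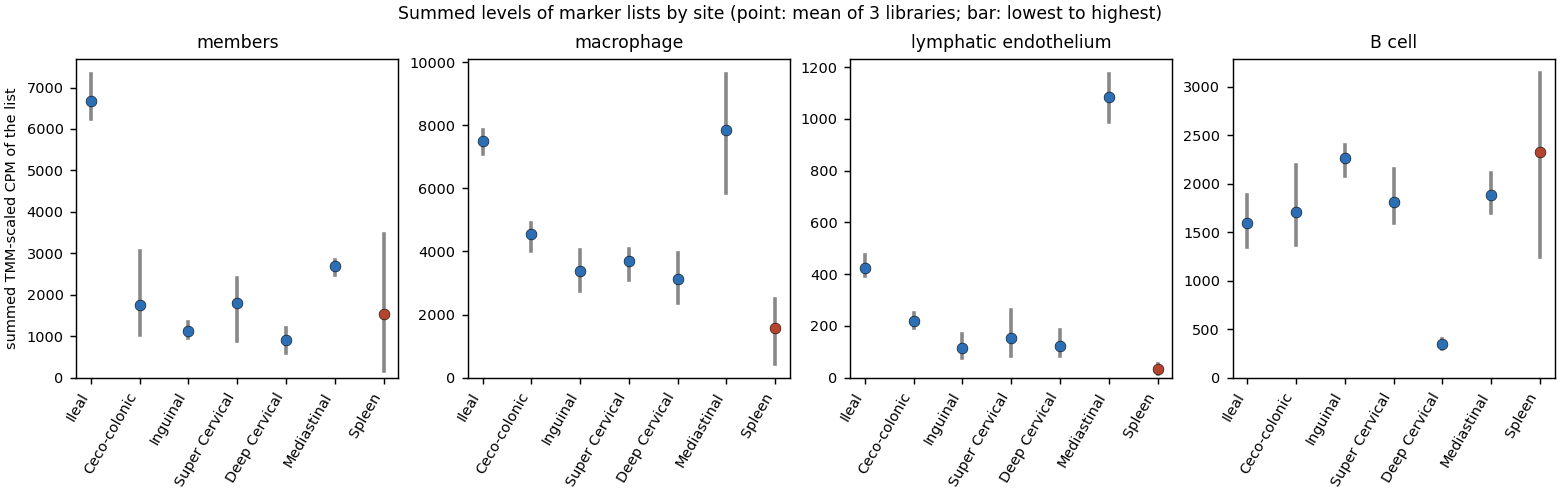
Summed TMM-scaled CPM of the 10 receptor genes, of 16 macrophage genes, of 11 lymphatic endothelial genes and of 7 B cell genes at the 7 sites with 3 deep libraries (points are means of 3 libraries, bars run from the lowest to the highest library). The mediastinal libraries hold the highest lymphatic endothelial sums, at 987 to 1174 CPM, and the ileal libraries come next at 391 to 475 CPM.

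Siglec1 encodes sialoadhesin, and its locus drives the Cre. Its transcript was close to absent: 402 counts were found over all 36 pull-down libraries, and 17 of the 36 held any. The mediastinal libraries held 50.1, 54.9 and 230 of these counts, which correspond to 0.636, 0.987 and 2.38 CPM. A single super cervical library had the highest level, 3.12 CPM, from 2.67 counts. Ileal libraries held 0.528, 0.557 and 0.204 CPM, and in spleen 1 library held 0.481 CPM and the other two were at 0. No difference of Siglec1 between the 7 sites was detectable at this depth (F test adjusted p = 0.147), and it was called in none of the 21 pairs of sites. Since all animals carried the same alleles, the bearing of the knock-in on this level was not tested.

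The other 9 genes all differed between the 7 deep sites in edgeR's F test, where 74% of all genes were called, and also between the 6 nodes alone, where 56.8% were. Their levels covered several orders of magnitude. Per kilobase of exon, Marco reached 3258 CPM in the ileal node, against 79.4 CPM for Cd5l, 65.2 for Cd209b, 12.4 for Timd4, 8.20 for Mrc1, 7.33 for Cd68, 3.28 for Adgre1, 1.95 for Msr1, 0.450 for Cd163 and 0.0601 for Siglec1. In the mediastinal node the levels per kilobase were again highest for Marco (1160 CPM), followed by Cd209b (86.3), Timd4 (54.6), Cd68 (25.8) and Cd5l (23.8).

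RefSeq promoters, with coordinates on GRCm38.p6, were found for 7 of the 10 genes, and not for Siglec1, Msr1 and Adgre1. The 250 bases upstream of the start are shown for 4 of these, chosen after their values were seen as examples of different patterns over sites, namely Marco and Cd5l (high in ileal node), Timd4 (low in ileal node among the nodes) and Cd209b (low in spleen). Capitals mark the letters AGGAAG or their reverse complement CTTCCT, the core of sites bound by ETS factors such as the myeloid factor PU.1. The windows lie at chr1:120505025-120505274 (minus strand), chr3:87357631-87357880 (plus), chr11:46810549-46810798 (plus) and chr8:3926842-3927091 (minus), in the order printed.
Marco: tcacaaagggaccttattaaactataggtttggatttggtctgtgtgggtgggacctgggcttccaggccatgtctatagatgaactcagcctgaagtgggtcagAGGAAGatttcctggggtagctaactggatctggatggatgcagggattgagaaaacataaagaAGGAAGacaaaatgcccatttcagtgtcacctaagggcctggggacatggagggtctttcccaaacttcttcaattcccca
Cd5l: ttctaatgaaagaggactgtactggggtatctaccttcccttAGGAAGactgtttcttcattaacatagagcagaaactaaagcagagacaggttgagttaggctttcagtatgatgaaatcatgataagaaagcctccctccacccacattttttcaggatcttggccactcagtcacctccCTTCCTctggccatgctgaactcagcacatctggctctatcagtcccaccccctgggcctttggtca
Timd4: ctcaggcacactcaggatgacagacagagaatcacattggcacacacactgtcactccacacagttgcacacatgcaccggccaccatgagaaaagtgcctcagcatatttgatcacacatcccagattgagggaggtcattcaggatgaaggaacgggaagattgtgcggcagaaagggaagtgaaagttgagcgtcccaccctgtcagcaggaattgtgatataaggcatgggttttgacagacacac
Cd209b: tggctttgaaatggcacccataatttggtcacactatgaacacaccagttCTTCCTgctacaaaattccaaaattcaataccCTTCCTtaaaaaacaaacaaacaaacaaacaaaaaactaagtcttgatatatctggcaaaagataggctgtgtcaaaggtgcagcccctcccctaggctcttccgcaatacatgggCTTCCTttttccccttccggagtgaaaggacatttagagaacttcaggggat
Searched on both strands, AGGAAG occurred 2 times for Marco, 2 times for Cd5l, 3 times for Cd209b and 0 times for Timd4, and 29.5% of 32851 RefSeq windows of this length hold it. The E-box CACGTG (in 6.02% of windows) matched none of the 4, the MAF half-site TGCTGA (16.1%) matched 2 times each for Cd5l and Timd4, and the nuclear receptor half-site AGGTCA (14.0%) matched 1 time for Timd4. Of the 3 genes whose promoters are not printed, Mrc1 held AGGAAG 3 times and Cd163 and Cd68 0 times, and the other motifs matched none of them. No match overlapped a match of another motif in the printed windows. These are letters in a window and not measured binding.

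Marco encodes a class A scavenger receptor that binds bacteria and polyanionic particles. Its level was 6097, 5740.1 and 6981 CPM in the ileal libraries, and 2910.2, 1079 and 945 CPM in the ceco-colonic ones. In the inguinal node it was 994, 1214 and 819 CPM, in super cervical node 2200.1, 1929 and 729.8 CPM, in deep cervical node 1105, 488 and 721 CPM, and in mediastinal node 2151, 2175 and 2371 CPM. Spleen held 3340.1, 935 and 151 CPM. Every ileal library thus lay above every other deep library with the exception of jejunal replicate 2, which held 6816 CPM. The mediastinal node ranked after the ileal one, and that step was not called (adjusted p over pairs = 0.0919), nor was any other between neighbours in the order. Msr1, the other class A scavenger receptor (SR-A), had 12.7, 12.2 and 12.2 CPM in ileal libraries and 7.07, 8.17 and 10.3 CPM in mediastinal ones. It ranged from 0.651 to 5.14 CPM over the other 4 nodes and had 0.719, 0.320 and 1.10 CPM in spleen. Mediastinal and deep cervical node (8.52 and 3.17 CPM on average) were the only neighbours in the order of Msr1 that differed (adjusted p over pairs = 0.0396).

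Cd5l, also called AIM, is a protein with scavenger receptor cysteine-rich domains that macrophages secrete into the circulation. Ileal libraries held 161, 187 and 137 CPM, mediastinal ones 48.0, 44.9 and 52.2 CPM and spleen 77.7, 41.5 and 11.02 CPM. The 12 ceco-colonic, inguinal and cervical libraries lay between 9.96 and 41.9 CPM. No library of the other 6 sites reached the ileal range, and the step from ileal to mediastinal node, the next in order, was called (1.74 ± 0.50, adjusted p over pairs = 0.0103). Jejunal replicate 2 did not reach it either, at 32.0 CPM of Cd5l. Cd163, the haemoglobin-haptoglobin scavenger receptor, belongs to the same domain family and was scarce. Deep cervical libraries had 3.91, 3.27 and 9.70 CPM and mediastinal ones 2.66, 2.93 and 8.53 CPM, whereas the ileal libraries had 1.75, 3.23 and 2.40 CPM and ceco-colonic ones 0, 0 and 0.453 CPM. The 6 inguinal and super cervical libraries lay between 0.295 and 2.08 CPM. Spleen held 0.719, 3.20 and 0 CPM, and none of the steps between neighbouring sites was called for Cd163.

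Timd4 encodes TIM-4, a receptor for phosphatidylserine on dying cells that marks long-lived resident macrophages. It was arranged differently: the ileal libraries held 24.1, 32.6 and 24.4 CPM, less than every library of the other 5 nodes with 3 deep libraries, and jejunal replicate 2 held less still, at 12.6 CPM. Ceco-colonic libraries held 40.9, 65.3 and 49.3 CPM, inguinal ones 43.5, 74.9 and 70.8 CPM, super cervical ones 103, 64.0 and 57.8 CPM, deep cervical ones 35.2, 34.1 and 60.3 CPM and mediastinal ones 89.6, 167 and 99.6 CPM. Spleen had the lowest levels, 20.1, 5.61 and 1.10 CPM. In the order of site means only the lowest step, ileal node over spleen, was called (adjusted p over pairs = 0.0243).

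**Figure D2:**
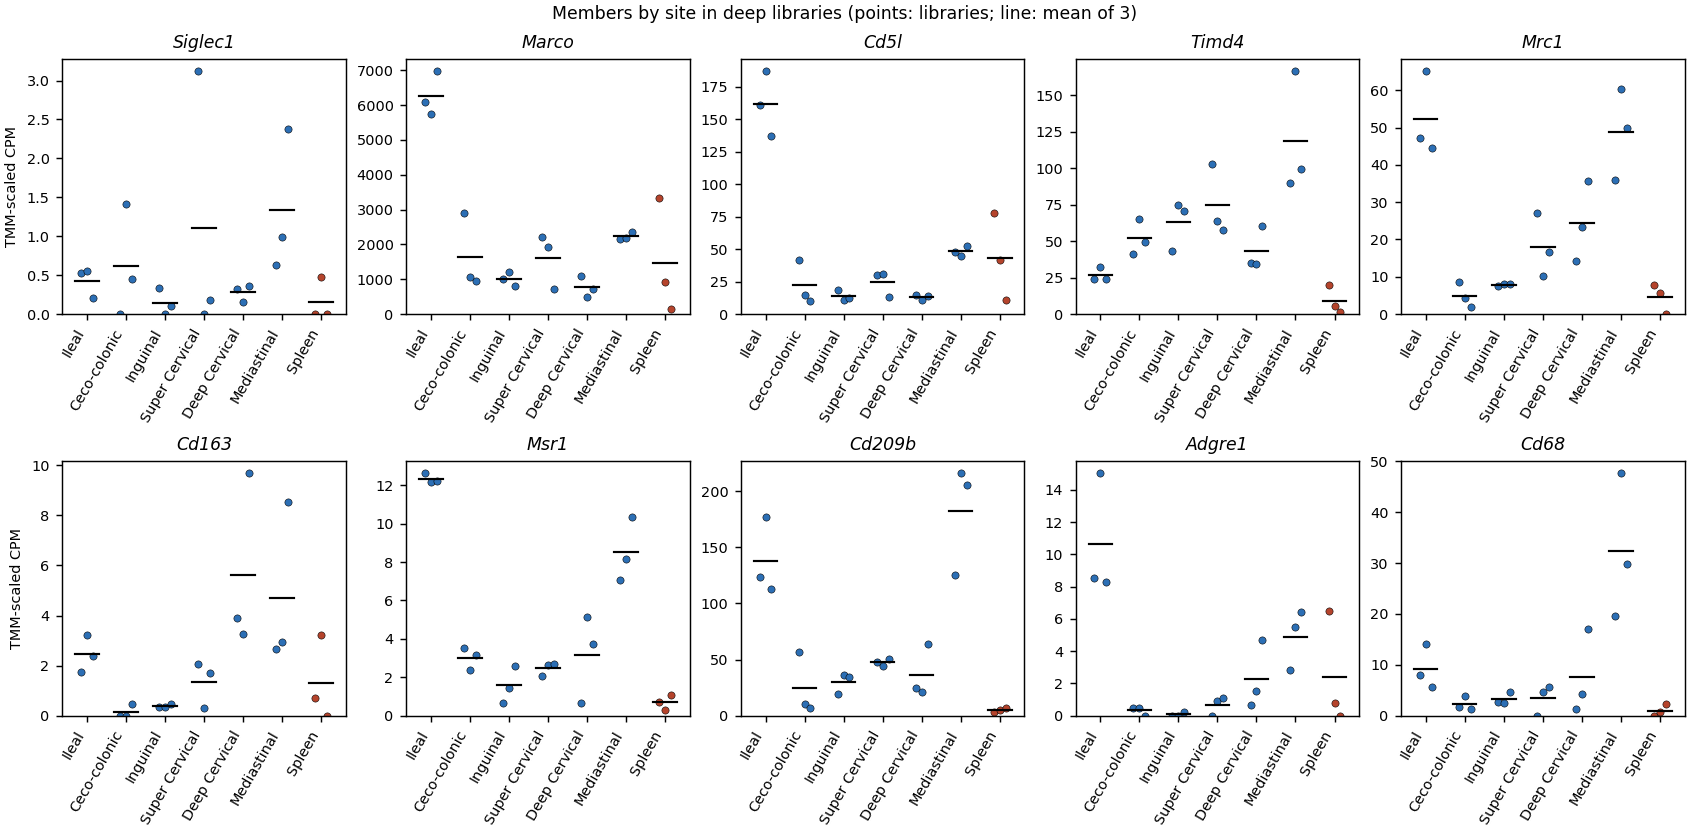
TMM-scaled CPM of each of the 10 genes (1 panel each, with its own linear axis starting at 0) at the 7 sites with 3 deep libraries, where points are libraries and lines are means of 3. Marco and Cd5l are highest in ileal node (5740.1 to 6981 and 137 to 187 CPM), whereas Timd4 and Cd209b are lowest in spleen (1.10 to 20.1 and 3.60 to 6.61 CPM).

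Mrc1 encodes the mannose receptor. Ileal libraries held 47.2, 65.1 and 44.6 CPM and mediastinal ones 36.04, 60.5 and 49.9 CPM. Ceco-colonic libraries held 8.59, 4.26 and 1.81 CPM, inguinal ones 7.48, 7.96 and 8.20 CPM and spleen 7.91, 5.61 and 0 CPM, while the 6 cervical libraries lay between 10.3 and 35.8 CPM. The ileal and mediastinal libraries, whose ranges overlapped, all lay above those of the other 5 sites, of which deep cervical replicate 3 was the highest. Cd209b encodes SIGN-R1, a C-type lectin of marginal zone and medullary macrophages that binds microbial polysaccharides. It had 123, 177 and 113 CPM in ileal and 125, 216 and 206 CPM in mediastinal libraries. Over the other 4 nodes Cd209b ranged from 7.24 to 64.1 CPM, and spleen had 3.60, 4.97 and 6.61 CPM, below every node library. Ileal over super cervical node (adjusted p over pairs = 0.033) and ceco-colonic node over spleen (adjusted p over pairs = 0.00589) were the called steps between neighbours. Reads of Cd209b may be shared with its close paralogs of the Cd209 family, so its counts are uncertain.

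Adgre1 encodes the adhesion receptor F4/80. Ileal libraries held 8.52, 15.1 and 8.31 CPM and mediastinal ones 2.85, 5.47 and 6.399 CPM. In spleen it was 6.47, 0.801 and 0 CPM, and the 12 other libraries lay between 0 and 4.69 CPM. The ileal range lay above all of these. Cd68 encodes a heavily glycosylated protein of the endosomal and lysosomal membrane. It was highest in mediastinal node, at 19.6, 47.8 and 29.8 CPM, above the ileal 7.91, 14.2 and 5.56 CPM, and that step was called (ileal minus mediastinal -1.81 ± 0.62, adjusted p over pairs = 0.0333). Spleen held 0, 0.641 and 2.20 CPM of Cd68, and the 12 other node libraries lay between 0 and 17.0 CPM. By plain totals, jejunal replicate 2 lay below the ileal libraries for Mrc1 (9.95 against 46.5 to 88.1 CPM) and Cd209b (16.3 against 118 to 240). The same held for Msr1 (6.80 against 12.7 to 16.5) and Cd68 (0 against 5.81 to 19.2). It lay within the ileal range for Adgre1 (9.37) and Cd163 (2.31). TMM raised the levels of this library, for Marco from 4155 to 6816 CPM.

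The series title asks what distinguishes nodes of the small intestine. The ileal node, its only site with 3 deep libraries, was first set against the mean of 4 nodes (mediastinal, inguinal and both cervical), whose titles name no digestive organ. Of the 10 genes 5 rose in the ileal node and 0 fell, where 2.89% of all genes were called (1.61% higher and 1.28% lower). The median fold change was 1.34 over the 10 genes and -0.00 over all genes. Beside Marco, Cd5l and Adgre1, the called genes were Msr1 and Mrc1. Msr1 averaged 12.4 ± 0.273 CPM in ileal libraries (SD, n = 3) and 3.94 ± 3.11 CPM in the others (SD, n = 12), without overlap (1.86 ± 0.34, adjusted p = 0.00108). Mrc1 averaged 52.3 ± 11.2 CPM in ileal node and 24.8 ± 17.6 CPM in the 4 nodes, with overlapping ranges (1.37 ± 0.35, adjusted p = 0.0218). The call of Mrc1 was lost when any 1 ileal library was left out (1.18 to 1.49, adjusted p = 0.0692 to 0.242) and when all 36 libraries were fitted together (1.31, adjusted p = 0.132).

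Timd4 was the gene with the opposite sign, at 27.0 ± 4.82 CPM in ileal libraries and 74.9 ± 36.8 CPM in the others. The ranges did not overlap, at 24.1 to 32.6 CPM in ileal node and 34.1 to 167 CPM in the 4 nodes, but the difference missed the threshold (-1.37 ± 0.41, adjusted p = 0.065). It was called with DESeq2 (-1.46, adjusted p = 0.00209), with DESeq2's size factors in edgeR (-1.46, adjusted p = 0.0391), with no low-count filter (-1.34, adjusted p = 0.0431) and without deep cervical replicate 1 (-1.40, adjusted p = 0.0473). Cd209b had 138 ± 34.6 CPM in ileal node and 74.2 ± 69.9 CPM in the 4 nodes (1.31 ± 0.38, adjusted p = 0.0537), and was called with no low-count filter (1.34, adjusted p = 0.00593), with all libraries thinned to the same total (1.40, adjusted p = 0.0408) and without deep cervical replicate 3 (1.48, adjusted p = 0.0128). Cd163, Cd68 and Siglec1 had fold changes of 0.33, 0.24 and 0.12 (adjusted p = 0.933, 0.96 and 1).

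Taken pair by pair, the ileal node was set against each other site, with p-values now adjusted over all genes and all 21 pairs of sites. Among the 10 genes, 7 were higher and 0 lower against inguinal node (9.36% of all genes called), 6 higher and 1 lower against super cervical node (7.77%) and 5 higher and 0 lower against deep cervical node (22.9%), and 8 higher and 0 lower against both spleen (42.5%) and ceco-colonic node (5.69% over all pairs, against 0.264% with this comparison adjusted alone). The gene lower in ileal than in super cervical node was Timd4 (-1.46 ± 0.48, adjusted p over pairs = 0.0252). Against the mediastinal node only Cd5l was higher, while Timd4 (-2.13 ± 0.48, adjusted p over pairs = 0.00166) and Cd68 were lower, with 18.9% of all genes called. Without spleen replicate 3 the ileal node was higher than spleen for 5 of the 10 genes (39.8%), and without replicate 2 for 4 (43%). These comparisons share the ileal libraries. The mediastinal node in turn was higher than the ceco-colonic node for 6 of the 10 genes (32.4% of all genes called), the inguinal node for 7 (41.2%), the super and deep cervical nodes for 5 each (32.5% and 17.3%) and spleen for 5 (60%), and was lower for 0 in each of these pairs. Over all pairs, 92 of 210 gene-and-site pairs were called, against 25.2% of 413742 for all genes, and Cd209b (14 of 21 pairs), Mrc1 (13) and Msr1 (13) were called most often and Siglec1 (0), Marco (5) and Cd163 (8) least often.

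Small and large intestinal drainage was compared between the ileal and the ceco-colonic node. Here 4 of the 10 genes rose in the ileal node and 0 fell, where 0.264% of all genes were called (0.213% higher and 0.0508% lower), and the median fold change was 2.25 over the 10 genes and 0.09 over all genes. Mrc1 had 47.2, 65.1 and 44.6 CPM in ileal libraries, against 8.59, 4.26 and 1.81 CPM in ceco-colonic ones (3.35 ± 0.55, adjusted p = 0.00273). Cd209b averaged 138 ± 34.6 CPM in ileal and 24.7 ± 27.5 CPM in ceco-colonic node (2.45 ± 0.55, adjusted p = 0.0467), Cd5l 162 ± 25.1 and 22.2 ± 17.3 CPM (2.84 ± 0.53, adjusted p = 0.0113), and Adgre1 10.6 ± 3.84 and 0.326 ± 0.283 CPM (4.88 ± 0.95, adjusted p = 0.0169). The fold change of Adgre1 rests on fewer than 3 counts in each ceco-colonic library, so its size is uncertain. Among the 10 genes the 2 ranges overlapped for Siglec1 alone. The share of all genes without overlap was not counted, and the ileal libraries were deeper. Timd4 again had more in the other node, at 27.0 ± 4.82 CPM in ileal and 51.9 ± 12.4 CPM in ceco-colonic libraries, and was not called (-0.94 ± 0.48, adjusted p = 0.385). Cell marker lists moved with this comparison as well, and their part in it was not tested. Of the 16 other macrophage genes C1qb was called, at 123 ± 42.5 CPM in ileal and 20.8 ± 4.10 CPM in ceco-colonic node, while 8 had an unadjusted p under 0.05 and DESeq2 called 7 higher (list median 1.09). Of the 11 lymphatic endothelial genes Lyve1 was called, at 59.5 ± 7.59 and 9.46 ± 7.77 CPM, while 4 had an unadjusted p under 0.05 and DESeq2 called 3 higher (median 1.45).

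These 4 calls depended on single libraries. Without ceco-colonic replicate 2 or without replicate 3 none of the 10 was called, and over all genes 8 and 3 calls were left of 52. Without ileal replicate 2 only 1 of the 10 was called, Mrc1, and 14 genes in all. C1qb and Lyve1 were not called either without ileal replicate 2 or without ceco-colonic replicate 2 or 3. The fold changes moved less, between 2.98 and 4.11 for Mrc1 and between 2.50 and 3.72 for Cd5l over the 6 libraries left out in turn. Ceco-colonic replicate 1 stood above the other two for Marco, Cd5l and Cd209b. DESeq2 called 7 of the 10 genes and edgeR with no low-count filter 8, the added ones including Marco (2.01, adjusted p = 0.0408 in DESeq2). Over all genes these settings also called more, 612 of 19651 and 508 of 40745 genes, against 52 of 19702 in the main fit.

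Against spleen, the mean of the 6 nodes was higher for 5 of the 10 genes and lower for 0, where 57.1% of all genes were called (31.4% higher and 25.7% lower). The median fold change was 1.19 over the 10 genes and 0.27 over all genes, so directions are read against that shift. With plain library totals in place of TMM the median of all genes was 1.05 and calls divided into 8350 higher and 2739 lower, against 6191 and 5057 with TMM. The 2 genes whose node and spleen libraries did not overlap were Cd209b and Timd4, and the share of all genes without overlap was not counted. Cd209b averaged 76.5 ± 67.3 CPM in nodes (SD, n = 18), from 7.24 to 216 CPM, and 5.06 ± 1.51 CPM in spleen (SD, n = 3; 3.52 ± 0.57, adjusted p = 1.13e-05). By plain totals the spleen libraries held 2.22 to 4.81 CPM of Cd209b, below the 8.60 CPM of the isotype control from jejunal node. The lowest ceco-colonic library, at 5.75 CPM, lay below that control too, so these low levels cannot be told from background. Timd4 averaged 63.1 ± 35.3 CPM in nodes and 8.95 ± 9.95 CPM in spleen (2.67 ± 0.48, adjusted p = 3.57e-05). Its splenic levels by plain totals, 0.815 to 11.7 CPM, lay on both sides of the control's 1.95 CPM. In single pairs with spleen, 3 genes were higher and 1 lower in ceco-colonic node (29.7% of all genes called) and 2 and 2 in inguinal node (23.3%). The counts were 4 and 0 in super cervical (29.6%) and 5 and 1 in deep cervical node (55.5%). Without spleen replicate 3 these 4 nodes had 3 and 3, 2 and 3, 3 and 1, and 5 and 2 (28.1%, 21.3%, 29.3% and 53.5%).

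Mrc1 averaged 26.1 ± 20.4 CPM in nodes and 4.51 ± 4.07 CPM in spleen (1.91 ± 0.49, adjusted p = 0.0016), Msr1 5.19 ± 4.16 and 0.714 ± 0.391 CPM (3.01 ± 0.70, adjusted p = 0.000726) and Cd68 9.69 ± 12.3 and 0.948 ± 1.13 CPM (3.15 ± 0.87, adjusted p = 0.00349). Msr1 and Cd68 rest on a handful of counts in spleen. When all libraries were thinned to the same total of 1165831 counts, Msr1 was at 1 count in each spleen library and its call was lost (0.97, adjusted p = 0.307), as was that of Cd68 (1.76, adjusted p = 0.137). Cd68 also lost its call without spleen replicate 2 (2.83, adjusted p = 0.0593). Without spleen replicate 3 all of these stayed called, at 1.34 for Mrc1 (adjusted p = 0.0183), 3.11 for Msr1 (adjusted p = 0.00199) and 3.50 for Cd68 (adjusted p = 0.00811). Msr1 moved to 2.21 without spleen replicate 2 (adjusted p = 0.0354).

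Marco and Cd5l did not follow. Marco averaged 2258 ± 1982 CPM in nodes and 1475 ± 1662 CPM in spleen (0.25 ± 0.49, adjusted p = 0.695). Its sign turned with DESeq2's size factors in edgeR (-0.022), with DESeq2 (-0.021) and with thinned libraries (-0.016), and with plain totals it was called higher in nodes (1.12, adjusted p = 0.0456), where the median of all genes was 1.05. Cd5l averaged 47.3 ± 55.1 CPM in nodes and 43.4 ± 33.4 CPM in spleen (-0.54 ± 0.37, adjusted p = 0.218). The fold change weights the 6 nodes equally on a log scale, whereas the ileal libraries raise the arithmetic mean, and the library medians were 24.3 CPM in nodes and 41.5 CPM in spleen. Both turned on which spleen library was kept: without spleen replicate 3 the fold change was -1.13 for Cd5l, a lower call (adjusted p = 0.00939), and -0.43 for Marco (adjusted p = 0.384). Without spleen replicate 1 Marco was called higher in nodes (1.45, adjusted p = 0.0334). Timd4 and Cd209b stayed called when any 1 of the 21 libraries was left out (2.11 to 3.52 and 3.14 to 3.60), with Timd4 standing at 2.11 and Cd209b at 3.46 without spleen replicate 3, and Timd4 at 3.52 without spleen replicate 1. Adgre1, Cd163 and Siglec1 had fold changes of -0.61, -0.56 and 0.48 (adjusted p = 0.488, 0.474 and 0.773).

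**Figure D3:**
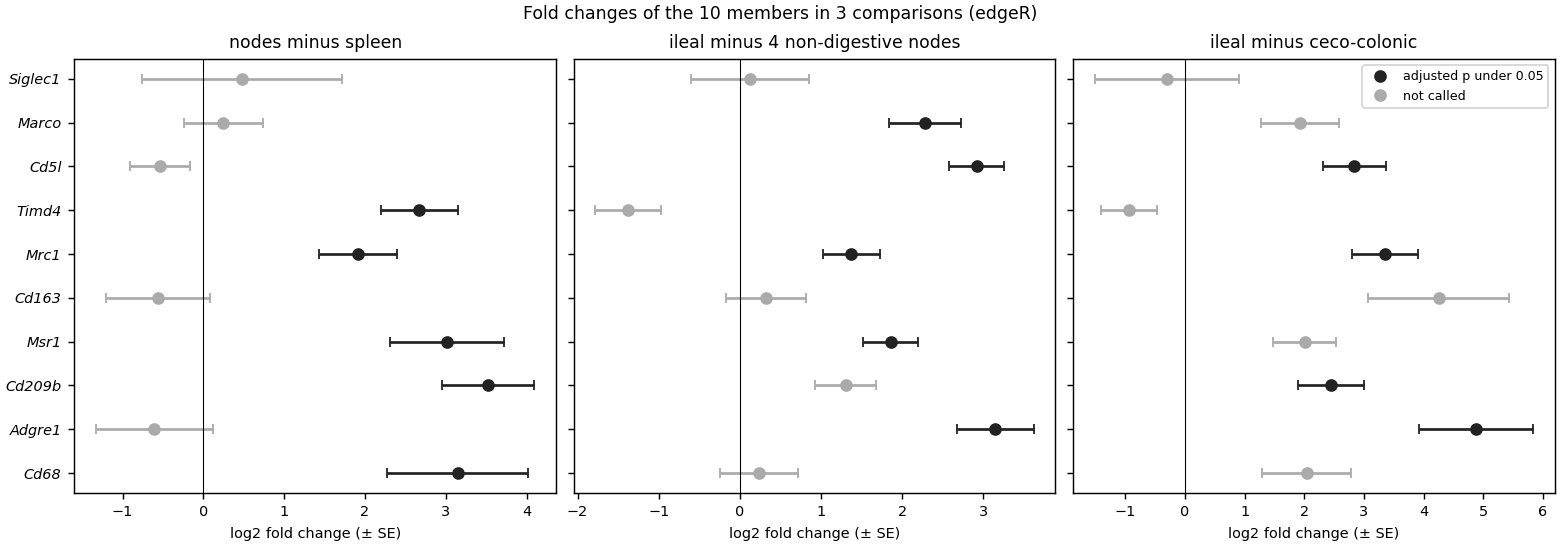
Log2 fold changes (± SE) of the 10 genes in the 3 comparisons, with black points for adjusted p under 0.05 and grey points for genes that were not called; the axis gives the first-named site or sites minus the other. Timd4 is at 2.67 for nodes minus spleen but at -1.37 and -0.94 for the ileal node against the 4 nodes and against the ceco-colonic node, while Cd5l is at -0.54, 2.92 and 2.84.

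Marker genes of other cells moved with these results, and their part in them was not tested. In the ileal node against the 4 nodes, where 1.61% of all genes were called higher and 1.28% lower, 6 of 11 lymphatic endothelial genes rose and 0 fell (list median 1.67). Among them were the claudin Cldn5 (150 ± 24.0 CPM in ileal and 31.7 ± 13.5 CPM in the 4 nodes; 2.32 ± 0.35) and the hyaluronan receptor Lyve1 (59.5 ± 7.59 and 14.0 ± 11.3 CPM; 2.43 ± 0.37). Of the 6, only Cldn5 and Lyve1 stayed called in every alternative fit. Of the 16 other macrophage genes 3 rose and 0 fell (median 0.86), namely the complement genes C1qa and C1qc and the calcium-binding protein gene Aif1. Of 7 dendritic cell genes measured 2, Clec9a and Batf3, rose as well, and B and T cell genes had 0 calls of 7 each in edgeR (0 and 1 with an unadjusted p under 0.05) and 0 each in DESeq2. Of 5 monocyte and neutrophil genes edgeR called 0 and DESeq2 1, which was lower, while all 5 had an unadjusted p under 0.05 (median -1.27), S100a8 being higher in ileal node (2.36 ± 0.73, adjusted p = 0.106). Folr2, of the Kupffer cell list, was lower in the ileal node (0.916 ± 0.309 CPM in ileal and 3.96 ± 3.43 CPM in the 4 nodes; -1.77 ± 0.48, adjusted p = 0.0355). In the nodes against spleen 9 of the 16 macrophage genes rose and 1 fell (median 1.14). Over all genes, 31.4% were called higher and 25.7% lower in that comparison. C1qb, Ctss, C1qc and Lyz2 were higher by 4.03, 3.55, 3.01 and 2.89, and the myeloid transcription factor gene Spi1 was lower (-1.54 ± 0.29, adjusted p = 7.11e-05). Of the lymphatic endothelial genes 5 rose and 0 fell (median 1.44), of 7 T cell genes 6 rose and 0 fell (median 3.56), and of 5 monocyte and neutrophil genes 0 rose and 3 fell (median -3.68). Without spleen replicate 3 these counts were 7 and 1 for macrophage genes, 5 and 1 for lymphatic endothelial genes, 7 and 0 for T cell genes and 0 and 3 for monocyte and neutrophil genes.

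Lyz2, the lysozyme gene of macrophages, was singled out after its values were seen, since like Cd68 it was highest in mediastinal node. It averaged 2910 ± 1044 CPM in mediastinal node and between 243 and 614 CPM in the other nodes. Genes of alveolar macrophages summed to 10.1 to 13.4 CPM in mediastinal libraries and to 27.0 to 56.4 CPM in deep cervical ones, and their part was not tested. The 6 genes of splenic red pulp macrophages summed to 399 to 656 CPM in mediastinal and 71.4 to 241 CPM in the other node libraries, against 23.1 to 128 CPM in spleen. In nodes against spleen 4 of them were measured, and the haem oxygenase gene Hmox1 rose (91.2 ± 80.2 CPM in nodes and 27.0 ± 18.7 CPM in spleen; 1.31 ± 0.38, adjusted p = 0.00446) and Slc40a1 fell (-1.15 ± 0.45, adjusted p = 0.0301), with 0 higher and 1 lower without spleen replicate 3. The transcription factor gene Spic averaged 12.96 to 37.8 CPM at the 7 sites, with 14.5 CPM in spleen. Of the Kupffer cell list Folr2 was higher in nodes than in spleen (2.72 ± 0.81, adjusted p = 0.00583).

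The 3 lists of related genes were followed in the same comparisons. Over all genes, 31.4% were called higher and 25.7% lower in nodes against spleen. The share called was 2.89% in ileal node against the 4 nodes and 0.264% between ileal and ceco-colonic node. Of 18 other scavenger and uptake receptors measured, 6 rose and 1 fell in nodes against spleen (median 0.83), 2 rose and 0 fell in ileal node against the 4 nodes (median 0.28), and 0 were called in edgeR between ileal and ceco-colonic node (median 1.23), where 7 had an unadjusted p under 0.05 and DESeq2 called 3. The scavenger receptor Stab1 was higher in both comparisons in which the list had calls, by 2.58 ± 0.50 in nodes over spleen and by 1.42 ± 0.37 in ileal node over the 4 nodes (adjusted p = 0.000101 and 0.0282), and its relative Stab2 in the ileal node (2.29 ± 0.50, adjusted p = 0.00831). The lysosomal receptor Scarb2 was higher in nodes than in spleen (2.17 ± 0.35) and the collectin Colec12 lower (-1.09 ± 0.27). Of 21 relatives of the 10 genes, 10 rose and 3 fell in nodes against spleen (median 2.12), where 57.1% of all genes were called. The lysosomal membrane gene Lamp1, structurally related to Cd68, averaged 186 ± 110 CPM in nodes and 11.8 ± 5.82 CPM in spleen (3.69 ± 0.44, adjusted p = 1.45e-07). Cd209d, a paralog of Cd209b, averaged 9.86 ± 5.07 CPM in nodes and 0.367 ± 0.636 CPM in spleen, and Havcr1 (TIM-1), a relative of Timd4, 6.55 ± 7.35 and 0.0534 ± 0.0925 CPM. Siglece, an inhibitory relative of Siglec1, was lower in nodes (2.32 ± 1.39 and 14.9 ± 13.8 CPM; -2.90 ± 0.43, adjusted p = 2.98e-06). In the ileal node against the 4 nodes 1 relative rose, Siglech, and 1 fell, Cd209g (1.25 ± 0.29 and -2.33 ± 0.61), and between ileal and ceco-colonic node edgeR called 0 (7 with an unadjusted p under 0.05, DESeq2 calling 4; median 0.34).

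Regulators and growth factors of sinus macrophages formed the last list, with 15 genes measured. In nodes against spleen 7 rose and 1 fell (median 0.96), where 31.4% of all genes were called higher and 25.7% lower. The lymphotoxin receptor gene Ltbr averaged 12.1 ± 6.99 CPM in nodes and 0.374 ± 0.647 CPM in spleen (3.85 ± 0.57, adjusted p = 3.36e-06), the macrophage growth factor Csf1 12.3 ± 7.13 and 1.25 ± 0.615 CPM (2.85 ± 0.43, adjusted p = 4.88e-06), and the transcription factor gene Irf8 was higher by 2.18 ± 0.47. In the ileal node against the 4 nodes Csf1 was the only called gene, at 24.7 ± 2.58 CPM in ileal and 10.1 ± 4.99 CPM in the other libraries (1.41 ± 0.26, adjusted p = 0.00131), and between ileal and ceco-colonic node edgeR called 0 of the 15 (6 with an unadjusted p under 0.05, DESeq2 calling 2; median 0.80). Without spleen replicate 3, the counts of these 3 lists in nodes against spleen were 5 higher and 3 lower for the scavenger and uptake receptors, 9 and 3 for the relatives and 4 and 1 for the regulators.

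Because Marco was abundant in every deep library, the other genes could be set against it within a library, which removes the library's scaling. These ratios were chosen after the values were seen and are descriptions without a test. They also move with Marco, which averaged 6273 CPM in ileal node and 1408 CPM in the 4 non-digestive nodes, against 27.0 and 74.9 CPM for Timd4. A low ileal ratio of Timd4 thus reflects more Marco as well as less Timd4. Spleen replicate 3 held only 137 Marco counts. Timd4 had 3.96, 5.68 and 3.49 counts per 1000 Marco counts in ileal libraries and 6.13, 6.05 and 6.94 in spleen. In the 15 libraries of the ceco-colonic and the 4 non-digestive nodes it had 14.1 to 86.5, with a median of 52.4. Jejunal libraries had 1.32, 1.89 and 0. The ileal, jejunal and splenic libraries together thus lay below all 15 others, although spleen replicate 3 rests on 0.950 counts of Timd4. Cd209b had 16.2 to 30.9 counts per 1000 Marco counts in ileal libraries, 58.3 to 99.5 in mediastinal ones and 1.17, 5.40 and 40.9 in spleen. The ileal values did not stand apart among the nodes for Cd209b, as ceco-colonic libraries had 7.71 to 19.3, inguinal ones 19.9 to 42.0 and cervical ones 21.9 to 89.0. At the 7 sites with 3 deep libraries Cd5l stayed closer to Marco, with 19.6 to 32.6 in ileal libraries, 8.94 to 22.3 in the 15 other node libraries and 23.3 to 76.3 in spleen. Jejunal libraries had 1.22, 3.93 and 98.6 of Cd209b and 4.63, 4.71 and 38.4 of Cd5l. Jejunal replicates 1 and 2 thus lay below every ileal library for both genes, while replicate 3 held only 25.2 Marco counts.

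**Figure D4:**
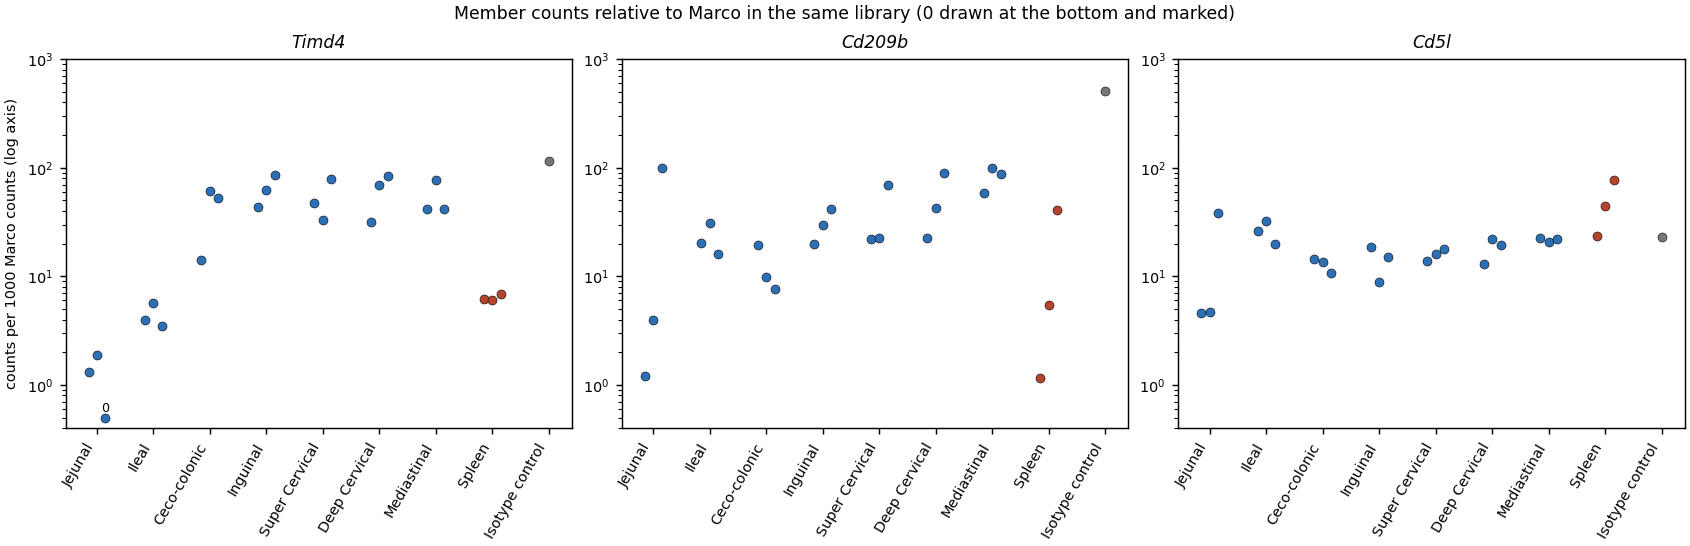
Counts of Timd4, Cd209b and Cd5l per 1000 Marco counts of the same library, on log axes, in jejunal, ileal, ceco-colonic, inguinal, cervical and mediastinal node, in spleen and in the isotype control (points are libraries). Timd4 lies at 3.49 to 6.94 in ileal and splenic libraries, at 14.1 to 86.5 in the ceco-colonic and the 4 non-digestive nodes, and at 115 in the isotype control. Marco, the denominator, was itself higher in ileal node (6273 CPM on average) than in the 4 non-digestive nodes (1408 CPM).

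Across the 22 deep libraries, which differ in site and depth, log2 CPM of Marco and Cd5l had a Pearson r of 0.83 (Spearman's rho 0.81), and Mrc1 and Cd209b had 0.76 (0.89). Timd4 went with neither of the first pair, with r = 0.26 to Marco (rho -0.06) and -0.02 to Cd5l (-0.15), nor did Cd68 with Marco (-0.08, 0.02). Among 6665 further genes of 10 CPM or more, those most like Marco were Zeb2os (r = 0.93), Acp2 and Guca1a, those most like Cd5l were C6 (0.86), Slc12a9 and Hk3, and those most like Timd4 were Mcemp1 (0.95), Sulf1 and Tmem158. Mrc1 was followed most closely by Lair1 (0.95), Vps18 and Fam89b, Cd209b by Ly86 (0.92), H2-Eb1 and Prnp, and Cd68 by Tns3 (0.93), Chchd3 and Usp12. These likenesses rest on the differences between a few sites.

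At the shallow sites only Marco could be followed, in CPM by plain totals. Marco ranged from 7.72 to 158 CPM in duodenal, 51.2 to 86.7 in liver, 33.3 to 89.5 in celiac and 86.1 to 764 in iliac node. The lowest duodenal value rests on 2.97 counts and lies below the 17.0 CPM of the isotype control. Ribosomal features held 74.3% to 85.6% of counts in duodenal, liver and celiac libraries. They held 39.0% to 60.3% in iliac and shallow jejunal ones, so plain totals lower the levels unequally. The 2 shallow jejunal libraries held 2916 and 98.3 CPM, and the deep jejunal one 4155. In the F test over the 5 shallow sites, where 6.95% of 2777 genes were called, Marco was not (adjusted p = 0.0694). It was called without jejunal replicate 3 (adjusted p = 0.00267), the jejunal library that stood low (jejunal node was then a single shallow library, assumed to vary like those of the other sites), without duodenal replicate 2 (0.0365), without iliac replicate 2 (0.04), with plain totals (0.00652), with no low-count filter (4.29e-07) and with DESeq2 (0.00586).

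The isotype control gives the level without an antibody to the tag, from 1 library and therefore without a replicate check. Of the 7 genes with 15 or more counts over the 3 jejunal pull-downs and the control, 5 were 2-fold or more higher in the pull-downs by plain totals (with control levels under 3 counts set to 3 counts), as were 32.4% of 10564 genes, with a median log2 ratio of 0.02. Marco had 2916, 4155 and 98.3 CPM in the pull-downs and 17.0 CPM in the control (95% counting interval 13.6 to 21.01), a ratio of 141 between the mean and the control. Each pull-down library was above the control for Marco. Cd5l averaged 12.3 ± 7.97 CPM in the pull-downs and 0.390 CPM in the control, Msr1 5.12 ± 4.52 and 0.158 CPM, Mrc1 4.13 ± 5.19 and 0.248 CPM, and Adgre1 4.18 ± 4.76 and 0 CPM (SD, n = 3). The control held at most 1.95 counts of any of these 4. Set against 3 counts in the control (0.600 CPM), the ratio by plain totals was 6.98 for Adgre1, where the control held none. By TMM totals it was 4.10. The counting interval of the control reached 0.737 CPM, above those 3 counts, so neither ratio is a lower bound. Jejunal replicate 3 had 0 counts of Mrc1 and Msr1. Jejunal replicate 1 had 0 counts of Adgre1, and replicate 2 held 18.3 of its 19.1 counts. Without jejunal replicate 2 the mean of Mrc1 was 2.04 times and that of Adgre1 2.65 times the level of 3 counts.

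Timd4 and Cd209b stood closer to the control. Timd4 had 3.86, 7.84 and 0 CPM in the pull-downs and 1.95 CPM in the control (interval 0.959 to 3.68), and Cd209b had 3.56, 16.3 and 9.69 CPM in the pull-downs and 8.60 CPM in the control (interval 6.22 to 11.6). Their ratios were 1.999 and 1.15 by plain totals, 1.24 and 0.683 by TMM totals, and 0.989 and 0.770 without jejunal replicate 2. They were 2.64 and 1.83 with ribosomal features left out of the totals (15.5% to 60.3% of counts in the pull-downs and 6.50% in the control), 2.01 and 1.51 without jejunal replicate 1, and 2.998 and 1.16 without jejunal replicate 3. The direction of both thus turned with these choices, and Timd4 passed 2-fold under some of them. Siglec1 had 0 counts in all 4 libraries. Cd163 had 4.51 counts in 1 jejunal library and 0 in the control, and Cd68 1.89 counts in the pull-downs together and 2.23 in the control, so no ratio is given for them.

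**Figure D5:**
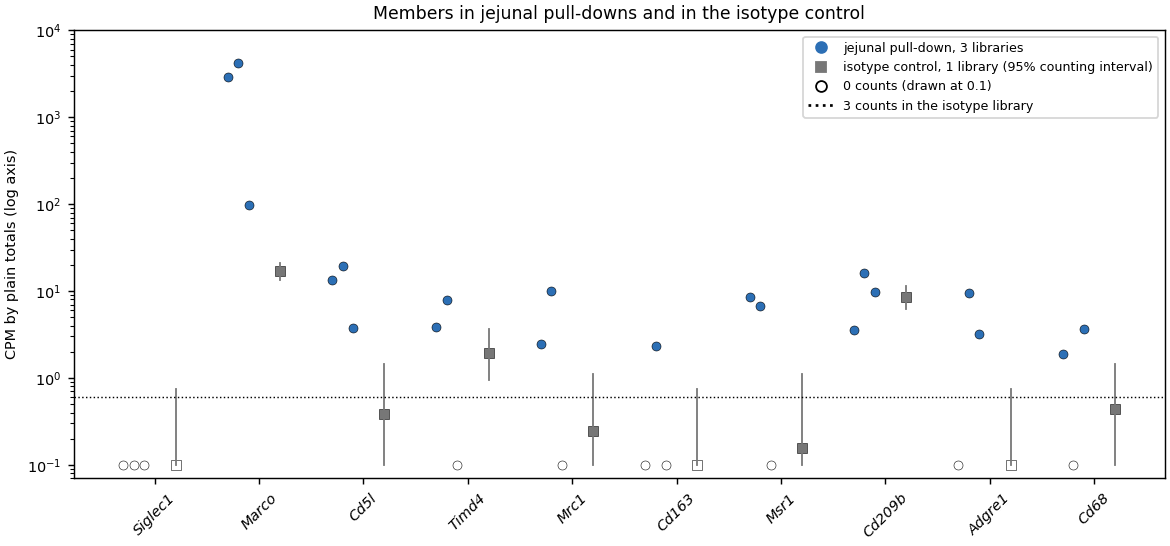
CPM by plain totals (log axis) of the 10 genes in the 3 jejunal pull-downs (circles) and in the isotype control (squares, with the 95% counting interval), where open symbols are libraries with 0 counts, drawn at 0.1, and the dotted line is 3 counts in the control. Marco lies at 98.3 to 4155 CPM in the pull-downs and at 17.0 CPM in the control, while Cd209b lies at 3.56 to 16.3 CPM and at 8.60 CPM.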

How the data were processed

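The deposited table gives estimated counts per gene for 37 libraries, per the file headers and the values: 32.8% of values were not whole, and the authors' columns carry no scaling between libraries that the sources used here describe. The tools named are edgeR, limma and kallisto, per the submitters' processing notes, which give them no role and list both GRCm39 and mm10 as builds, so no coordinates were taken from the table. Whether counting used strand is not given in the sources used here, and reads of close paralogs may be divided between them. RNA was polyadenylated RNA from ribosome pull-downs, per the labels.

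Counts were rounded. The main tests used edgeR 4.0.16 with limma 3.58.1 in R 4.3.3: filterByExpr (minimum count 10, minimum total 15), TMM, robust quasi-likelihood fits with 1 mean per site over the 22 libraries of 1000000 counts or more, and Benjamini-Hochberg values over all genes tested (over genes and 21 pairs together for pairs of sites), with a threshold of 0.05. The 14 shallower libraries were fitted apart and the isotype control was never fitted. Levels per kilobase use GENCODE M21 exons. The 36 pairs of replicates of a site differed beyond counting error (chi-square per degree of freedom of at least 10.8). Intervals describe counting error alone, as reads copied by PCR are not separate molecules. The fit was tested on simulated data. Alternatives were DESeq2 1.42.0, its size factors, plain totals, no low-count filter, the replicate number as a block, all 36 pull-down libraries together, each library left out in turn and, added after seeing the data, libraries thinned to a common total. The labels tie no replicate number to an animal or batch, so the numbers were not used as pairs. Deviations from site means correlated by over 0.1 more often in same-numbered pairs (16 of 63) than in others (19 of 126). Whether libraries of 1 number share an animal or batch was not tested. Also added were list counts and pairs with spleen without each spleen library.

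The 10 genes and all gene lists were chosen with earlier results of these data known. All 10 genes are named in each comparison, from each list up to 4 called genes with the smallest adjusted p, and for each of the genes averaging 5 CPM or more the 3 genes of 10 CPM or more with the highest Pearson r of log2 CPM (prior count 2).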

Additional observations from a re-analysis of the deposited data

How the results depend on the processing

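The F test over the 7 deep sites called 9 or 10 of the 10 genes under every alternative run, and pairs of sites gave 69 calls (all 36 libraries) to 103 against 92. Ileal minus the 4 nodes gave 4 to 7 called genes against 5, and nodes minus spleen 4 to 6 against 5. Ileal minus ceco-colonic gave 4, but 8 with no low-count filter, 7 with DESeq2 and 0 to 3 with 1 library left out. The shallow F test gave 0, but 1 (Marco) with plain totals, with no low-count filter and with DESeq2, and 0 to 1 with 1 library left out. With the replicate block the counts were 9, 95 (pairs), 5, 5 and 4, and 0 in the shallow test. The deviations of same-numbered libraries correlated by -0.31 to 0.43 (median 0.02), and 12 of 21 libraries correlated best with their own number.

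Signs that turned belonged to genes that were not called in the reported fit. For nodes minus spleen, Marco moved to -0.022 with DESeq2's size factors, -0.021 with DESeq2 and -0.016 with thinned libraries but was called at 1.12 (adjusted p = 0.0456) with plain totals, and plain totals gave 0.30 for Cd5l, 0.28 for Cd163 and 0.26 for Adgre1. Siglec1 moved to 0.24 with plain totals (ileal minus ceco-colonic) and to -0.11 with DESeq2 (ileal minus the 4 nodes). With 1 library left out, nodes minus spleen ran from -0.43 to 1.45 for Marco, -1.42 to 0.89 for Adgre1, -1.28 to 1.55 for Cd163 and -0.080 to 6.05 for Siglec1. Siglec1 ran from -0.13 to 0.61 against the 4 nodes and from -1.08 to 1.30 against ceco-colonic node, and Cd68 from -0.21 to 0.59 against the 4 nodes; the cause was not tested. Thinning also gave lower calls in nodes minus spleen for Cd5l (-0.85, adjusted p = 0.0424) and Adgre1 (-1.97, adjusted p = 0.0354).

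Over all genes, ileal minus the 4 nodes had 570 calls, against 877 with DESeq2, 913 with no low-count filter, 280 with all 36 libraries, 223 thinned and 235 to 675 with 1 library left out. Ileal minus ceco-colonic had 52, against 612, 508, 33, 35 and 3 to 66 under the same settings, 172 with plain totals, 101 with DESeq2's size factors and 102 with the replicate block. The shallow F test had 193, against 555 with plain totals, 672 with no low-count filter, 456 with DESeq2 and 81 to 362 with 1 library left out. Calls of Stab1, Siglech, Aif1, Flt4 and Cd209g in ileal minus the 4 nodes were lost without any 1 ileal library. Those of C1qa and C1qc were lost without ileal replicate 2 and those of Stab2 and Prox1 without ileal replicate 3. Mmrn1 lost its call in 15 of 21 alternative fits. Genes near 3 counts per library, such as Siglec1, Cd163 and splenic Msr1, are limited by depth.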
